A study of Mus musculus with 4 samples.

Results

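The gene set followed here comprises 48 genes of the lysosome: its acid hydrolases, several proteins of its membrane, and the V-ATPase, the proton pump that acidifies it. They were taken by gene symbol from a fixed list, which was chosen with earlier results of these data known. All 48 were found once in each deposited table, among 22554 gene names shared by both tables. Messenger RNA had been sequenced from RAW264.7, an established mouse macrophage line, in 4 libraries. In the coculture group (2 libraries) the cells had shared a culture with CT26, a mouse colon carcinoma line, and the mock group (2 libraries) is labelled only as mock. Both groups are the same cell line, and no genetic change or drug is named for either. The labels name the macrophage medium as DMEM and that of CT26 as RPMI1640, and say neither how long the cocultures lasted nor how the macrophages were separated. Coculture 1 and mock 1 form pair 1, in one table, and coculture 2 and mock 2 form pair 2, in the other.

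Lysosomes are acidic organelles in which proteins, glycans and lipids taken up or recycled by the cell are broken down. Macrophages, which live by engulfing material, hold many of them. The hydrolases need the low pH that the V-ATPase makes: its membrane sector, V0, carries protons, and its cytosolic sector, V1, burns ATP to drive V0. Transcription factors of the MiT/TFE family, TFEB among them, bind palindromic E-boxes in the promoters of many of these genes and can raise them as a group.

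Values are FPKM, a level scaled to gene length and library size, and each difference is the log2(FPKM + 1) of coculture less that of mock in the same pair. Depth was estimated at 12200000 to 16200000 reads per library. All 10 macrophage identity genes reached at least 2.23 FPKM in each library, and they summed to 9879 and 12830 FPKM in coculture 1 and 2, against 9380 and 5469 FPKM in mock 1 and 2. Of the 10, 3 were higher and 3 lower in both pairs and 4 had opposite signs. Without Lyz2 and Cd14, left out after their values were seen, the other 8 summed to 1562 and 1394 FPKM in coculture, against 1684 and 1586 FPKM in mock. Csf1r, a defining receptor, was 25.9% and 25.7% lower in coculture in pairs 1 and 2. On the other side, Cd14 was 2.85-fold and 3.25-fold higher, and Itgam 1.18-fold and 1.62-fold higher. The part of these differences in the results was not tested. The 8 epithelial markers summed to 0.166 and 0.045 FPKM in coculture 1 and 2, against 0.143 and 0 FPKM in mock 1 and 2, and Epcam, Krt18 and Cldn4 were listed at 0 in all 4. The 9 mesenchymal markers summed to 1.88 and 1.37 FPKM in coculture, against 2.57 and 1.71 FPKM in mock, most of it from Tagln, and Col3a1 and Postn were listed at 0 in all 4. In such bulk libraries, fewer cells of a kind and less RNA per cell cannot be told apart.

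Together the 48 genes took 1.196% and 1.310% of all FPKM in coculture 1 and 2, against 1.321% and 1.502% in mock 1 and 2, lower in both pairs, while single genes differed in both directions. Of the 48 genes, 47 reached 1 FPKM in at least 2 libraries and were tested; the protease gene Ctsh did not, at 0.418 and 0.655 FPKM in coculture and 0.642 and 0.469 FPKM in mock. None of the 47 passed limma with Benjamini-Hochberg adjustment over all 10202 genes tested, either as higher (0.127% of all genes did) or as lower (0% did). At an unadjusted limma p under 0.05, 2 members were higher, against 5.26% of all genes, and 7 were lower, against 9.45%. These counts were fragile. With all 4 libraries, the fit without the pair block gave 0 higher and 2 lower, and quantile normalization gave 0 and 8. Runs that left out 1 library also dropped the pair block. They therefore compared libraries across tables, with 1 library alone in a group, and cannot show the part of a single library in these counts. The median difference over the tested members was -0.03, beside -0.07 over all genes tested.

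The V-ATPase genes and the other members had different counts of direction. In both pairs 12 members were higher, where 21.5% of all genes were, and 13 were lower, where 42.2% of all genes were. The 12 included 7 of the 15 V-ATPase genes (46.7%), and the 13 included none of them. Of the 32 tested hydrolase and membrane protein genes, 13 (40.6%) were lower in both pairs, a share close to that of all genes, and 5 were higher. The V-ATPase count depended on scaling: after rescaling each library to a common total, 3 of 15 were higher in both pairs and 1 was lower, while over all 10202 genes 1631 were higher and 5086 lower. After median centring 10 of the 15 were higher in both pairs, and over all genes 3082 were higher and 3286 lower. Lipa alone among the tested members was lower by 1.5-fold or more in each pair, and none was higher by as much (2.17% of all genes were lower and 2.4% higher by that bound). No member reached 2-fold in both pairs, a bound that 1.02% of all genes passed as higher and 0.353% as lower.

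**Figure D1:**
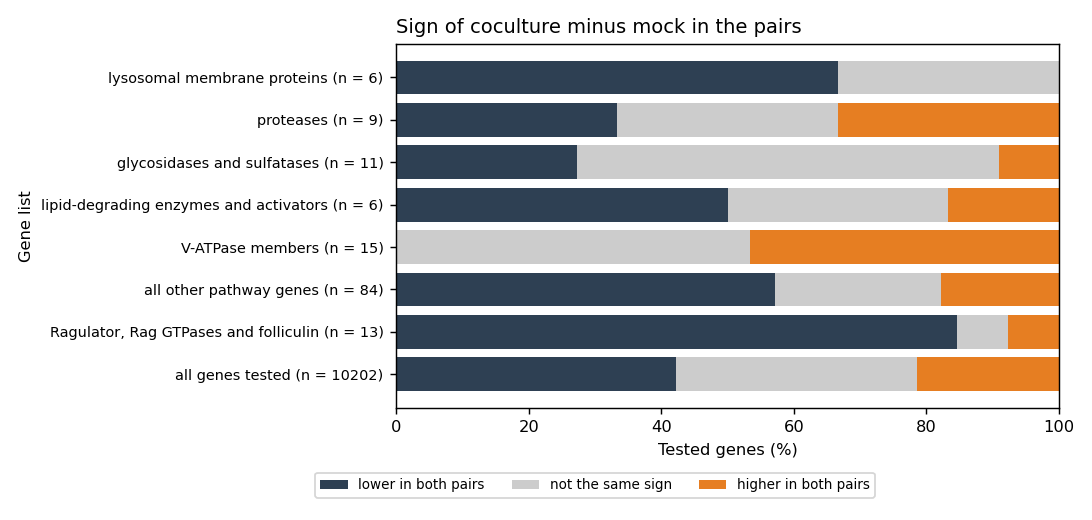
Percentage of tested genes in each list that were lower in both pairs (dark), higher in both pairs (orange) or not of the same sign in the pairs (grey), by coculture minus mock of log2(FPKM + 1). The V-ATPase bar has no dark part, with 7 of 15 genes higher in both pairs; the bar for Ragulator and its partners, whose genes are also counted among the other pathway genes, is dark for 11 of 13.

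The pairs disagreed on much of the set. In pair 1, 32 of the 47 members (68.1%) were lower in coculture, as were 62.5% of all genes, and in pair 2, 31 of the 47 (66.0%) were higher, as were 41.6% of all genes. Hence 19 members were lower in pair 1 and higher in pair 2, a combination that 20.1% of all genes had. The medians were -0.16 in pair 1 and 0.12 in pair 2, beside -0.09 and -0.06 over all genes. Across the 47 members, which share the same 4 libraries, pair 1 and pair 2 differences correlated with r = 0.49 (Pearson) and rho = 0.40 (Spearman), and over all genes tested with r = 0.48 and rho = 0.37. By kind, r was -0.20 and rho -0.17 over the 15 V-ATPase genes, and r was 0.54 and rho 0.50 over the other 32. The 15 include Atp6v0c, which could not be read reliably, as described below, and had differences of 0.20 and -0.27. The correlation without Atp6v0c was not computed, so the sign over the V-ATPase genes may rest on it. The difference was larger in size in pair 2 for 35 of the 47.

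**Figure D2:**
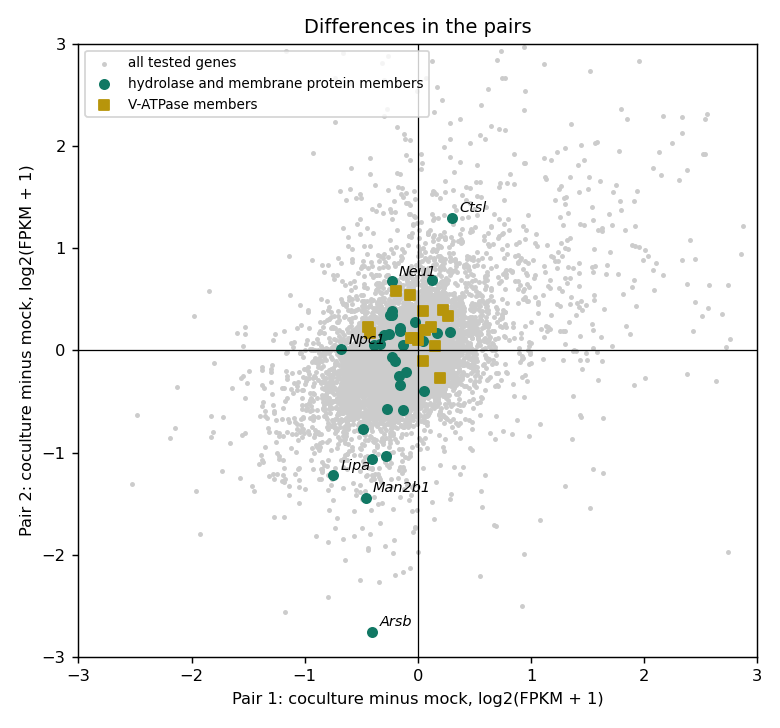
Each point is a tested gene, placed by its coculture minus mock difference of log2(FPKM + 1) in pair 1 (horizontal) and pair 2 (vertical); green circles are hydrolase and membrane protein members, ochre squares V-ATPase members and grey points all tested genes, of which 51 lie beyond the axis limits of 3 and are not drawn. Arsb stands lowest among the members at -2.75 in pair 2 and -0.40 in pair 1, Ctsl highest at 1.30 and 0.30, and no ochre square lies left of and below zero on both axes.

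Some of the genes share a short promoter sequence. Promoter windows of 300 bases, from 250 before the annotated start to 50 after it, were available from RefSeq (GRCm38.p6) for 39 of the 48 genes, and the motifs were searched after the expression values had been seen. The E-box CACGTG, a palindrome that reads alike on both strands, was in the window of 14 of the 39 genes (35.9%), against 12.3% of the 8249 tested genes with a window. The longer palindrome TCACGTGA, which contains it and is the core to which TFEB is known to bind, was in 7 of 39 (17.9%), against 2.36% of the tested genes. The 7 are shown because they carry that core; each run is given 5′ to 3′ on the gene's strand with the palindrome in capitals.
Mcoln1: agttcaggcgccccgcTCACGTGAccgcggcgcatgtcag
Ctsa: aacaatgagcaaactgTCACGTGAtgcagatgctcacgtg
Ctsd: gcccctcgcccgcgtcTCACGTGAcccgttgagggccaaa
Gla: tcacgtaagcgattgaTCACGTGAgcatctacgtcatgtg
Atp6v0d1: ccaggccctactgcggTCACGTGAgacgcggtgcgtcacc
Atp6v0e: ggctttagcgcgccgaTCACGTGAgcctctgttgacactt
Atp6v1a: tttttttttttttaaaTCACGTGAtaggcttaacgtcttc

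These stretches lie at chr8:3500457-3500496 (plus strand) for Mcoln1, chr2:164833744-164833783 (plus) for Ctsa, chr7:142387903-142387942 (minus) for Ctsd and chrX:134601210-134601249 (minus) for Gla. The V-ATPase stretches lie at chr8:105566045-105566084 (minus) for Atp6v0d1, chr17:26676382-26676421 (plus) for Atp6v0e and chr16:44139368-44139407 (minus) for Atp6v1a. The palindrome begins 46 bases before the RefSeq start in Mcoln1, 13 in Ctsa, 99 in Ctsd, 132 in Atp6v1a and 228 in Gla. It spans or directly follows that start in Atp6v0d1 and Atp6v0e. These positions depend on the annotation. In GENCODE M21, Ctsa, Ctsd, Atp6v0e and Atp6v1a begin upstream of their stretches, Atp6v0e at chr17:26663231, and Mcoln1 begins at the first base of its stretch. All 7 genes were lower in coculture in pair 1, and 6 of the 7 were higher in pair 2, Ctsa being the exception. Among the 195 tested genes of the genome with the palindrome, 16.4% were lower in pair 1 and higher in pair 2, against 20.3% of those without it. Among all carriers that combination was thus no more frequent than among the other genes, and no test was made on the 7.

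Among proteins of the lysosomal membrane, all 6 were lower in coculture in pair 1 and 4 were lower in both pairs. Of all genes tested, 62.5% were lower in pair 1 and 42.2% in both. Scarb2 encodes LIMP-2, which carries glucocerebrosidase to the lysosome. It had 22.7 and 13.4 FPKM in coculture 1 and 2, against 32.1 and 23.6 FPKM in mock 1 and 2. Coculture stood below mock in both pairs, with differences of -0.48 and -0.77 (limma mean -0.63 ± 0.14, moderated SE, 2 pairs; limma adjusted p = 0.209). Laptm5, whose product sits in lysosomal membranes of blood cells, had 306 and 258 FPKM in coculture, against 372 and 529 FPKM in mock. Here too coculture stood below mock in both pairs, and pair 2 carried most of the mean difference of -0.66 ± 0.22 (limma adjusted p = 0.304).

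The major membrane glycoproteins differed little. Lamp1 had 272 and 305 FPKM in coculture, against 292 and 353 FPKM in mock (differences of -0.10 and -0.21), and was slightly lower in coculture in both pairs. Lamp2, with differences of -0.17 and -0.25, was also slightly lower in both pairs without passing the test. Npc1, the exporter of cholesterol from lysosomes, had 12.6 and 18.6 FPKM in coculture, against 20.8 and 18.5 FPKM in mock. Its lower value was in pair 1 alone, with differences of -0.68 and 0.01. Mcoln1, a calcium channel and one of the palindrome's carriers, had differences of -0.16 and 0.22.

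The proteases included the most abundant member, and 3 of the 9 tested were higher and 3 lower in both pairs. Of all genes tested, 21.5% were higher and 42.2% lower in both. Cathepsins are the main lysosomal proteases. The 8 cathepsin genes together took 0.463% and 0.452% of all FPKM in coculture 1 and 2, against 0.455% and 0.458% in mock 1 and 2, so their total was nearly alike in the groups. Ctsd, the aspartic protease cathepsin D, had the highest mean of all members, with 364 and 465 FPKM in coculture and 372 and 382 FPKM in mock. Its differences of -0.03 and 0.28 had opposite signs. Ctsb, Ctsa and Tpp1, the last a tripeptidyl peptidase, had mean differences of -0.17, -0.15 and -0.14, with opposite signs in the pairs for Ctsb and Tpp1.

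Cathepsin L and legumain stood at the opposite ends of the protease group. Ctsl, a broadly acting cysteine protease, had 446 and 226 FPKM in coculture, against 362 and 91.4 FPKM in mock. It was higher within each pair, by 0.30 and 1.30 (mean 0.80 ± 0.26, limma adjusted p = 0.305). Lgmn encodes legumain, an asparaginyl endopeptidase that processes cathepsins. It had 152 and 157 FPKM in coculture, against 202 and 328 FPKM in mock. Coculture stood below mock in both pairs, by 24.6% in pair 1 and 52.2% in pair 2 (mean difference -0.73 ± 0.19, limma adjusted p = 0.244).

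The other cathepsins named differed less. Ctss, which trims the invariant chain for antigen presentation, had 256 and 286 FPKM in coculture, against 280 and 430 FPKM in mock, with differences of -0.13 and -0.59. Ctsz, a carboxypeptidase, had 333 and 367 FPKM in coculture, against 273 and 324 FPKM in mock, and was higher by 0.28 and 0.18. Its limma adjusted p was 0.446. Ctsc, which activates serine proteases of granules, had 24.8 and 5.93 FPKM in coculture, against 21.9 and 5.15 FPKM in mock. It was higher by 0.17 in both pairs.

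**Figure D3:**
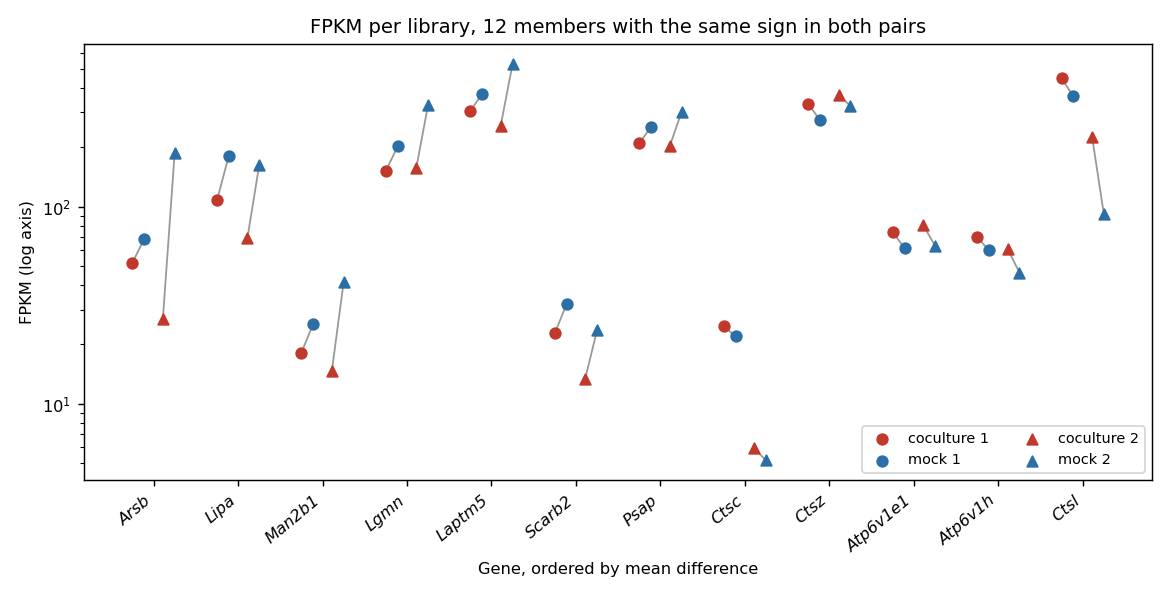
FPKM on a log axis for the 12 tested members whose weaker pair still showed the largest differences among genes with one sign in both, ordered by mean difference; red is coculture, blue mock, circles pair 1, triangles pair 2, and a grey line joins the libraries of a pair. From Arsb to Psap each red point lies below its blue partner, and from Ctsc to Ctsl above it; Arsb in pair 2 shows the longest line, at 27.0 FPKM in coculture 2 and 188 FPKM in mock 2.

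Glycosidases and sulfatases, which take glycans apart, mostly had opposite signs in the pairs. Of the 11 genes, 10 were lower in coculture in pair 1, whereas 8 were higher in pair 2, and 7 combined both. Over all genes tested these shares were 62.5%, 41.6% and 20.1%. The group median was -0.23 in pair 1 and 0.15 in pair 2. Neu1, the lysosomal sialidase, showed the widest gap among all members of opposite sign, with 10.6 and 25.0 FPKM in coculture and 12.7 and 15.3 FPKM in mock. Its differences were -0.23 and 0.68. Glb1, the beta-galactosidase, had 16.3 and 31.7 FPKM in coculture and 19.3 and 24.0 FPKM in mock, with differences of -0.23 and 0.39. Gusb (beta-glucuronidase) and Gaa (acid alpha-glucosidase) had similar values, at -0.23 and 0.35 for Gusb and -0.24 and 0.34 for Gaa. Manba, Gla and Arsa had smaller gaps of the same kind, and Galns was higher by 0.05 and 0.10.

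The members of this group that were lower in both pairs were Man2b1, Arsb and Hexa. Man2b1, the lysosomal alpha-mannosidase, had 18.2 and 14.6 FPKM in coculture, against 25.4 and 41.5 FPKM in mock. It was lower in both pairs, with pair 2 the farther apart, and the differences were -0.46 and -1.44 (mean -0.95 ± 0.26, limma adjusted p = 0.257). Arsb, arylsulfatase B, had 51.9 and 27.0 FPKM in coculture, against 68.8 and 188 FPKM in mock. It was 24.7% lower in pair 1 and 85.6% lower in pair 2, so its mean difference of -1.58 ± 0.57 rested mainly on pair 2 (limma adjusted p = 0.33). In GENCODE M21, 39.9% of the annotated exon length of Arsb overlaps long non-coding genes on the other strand, and reads of both strands cannot be told apart where counting ignores strand. Hexa, the alpha subunit of beta-hexosaminidase, had differences of -0.16 and -0.34.

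Among enzymes and activators of lipid breakdown, Lipa had the smallest adjusted p of all members. Lipa encodes lysosomal acid lipase, which frees cholesterol and fatty acids from lipoprotein lipids. It had 107 and 68.8 FPKM in coculture 1 and 2, against 181 and 162 FPKM in mock 1 and 2. Coculture stood well below mock in both pairs, by 40.6% in pair 1 and 57.5% in pair 2. The differences were -0.75 and -1.22 (mean -0.98 ± 0.16, limma adjusted p = 0.143), so the test was not passed. Its promoter window, chr19:34527425-34527724 on the minus strand, is given whole because Lipa differed most among the members when the smaller of its within-pair differences is taken; it holds no CACGTG.
Lipa: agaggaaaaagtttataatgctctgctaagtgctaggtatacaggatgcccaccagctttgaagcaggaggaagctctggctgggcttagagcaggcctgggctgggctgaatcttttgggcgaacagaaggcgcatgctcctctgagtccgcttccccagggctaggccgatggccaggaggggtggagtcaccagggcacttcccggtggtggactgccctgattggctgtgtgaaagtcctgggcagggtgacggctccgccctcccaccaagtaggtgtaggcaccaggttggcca

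Psap encodes prosaposin, the precursor of the saposins that present sphingolipids to their hydrolases. It had 209 and 202 FPKM in coculture, against 254 and 301 FPKM in mock. It was lower in both pairs, and the differences were -0.27 and -0.57 (mean -0.42 ± 0.14, limma adjusted p = 0.299). Npc2, which hands cholesterol to NPC1, stood on the other side, with differences of 0.13 and 0.69. Smpd1, the acid sphingomyelinase, had differences of -0.20 in pair 1 and -0.11 in pair 2. Asah1 (acid ceramidase) and Ppt1 (palmitoyl-protein thioesterase) had opposite signs in the pairs and mean differences of -0.04 and -0.05.

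Of the 15 V-ATPase genes, 7 were higher in coculture in both pairs and none was lower in both. Their sum took 0.298% and 0.362% of all FPKM in coculture 1 and 2, against 0.315% and 0.322% in mock 1 and 2. It was thus lower in pair 1 and higher in pair 2. The other 33 members together took 0.898% and 0.948% in coculture, against 1.01% and 1.18% in mock, lower in both pairs. The median difference of the 15 V-ATPase genes was 0.10 (0.04 in pair 1 and 0.20 in pair 2). That of the other tested members was -0.14 (-0.23 and 0.05). In pair 2, 13 of the 15 V-ATPase genes were higher in coculture, and in pair 1, 9 of 15. Over all genes tested these shares were 41.6% and 37.4%. The pattern did not extend to a separate list of other V-ATPase subunits. Of its 5 tested genes, 0 were higher in both pairs and 2 were lower in both.

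In the V1 sector, 5 of 8 subunit genes were higher in both pairs and none was lower in both, beside 21.5% and 42.2% of all genes. Atp6v1e1, a subunit of the peripheral stalk, had 74.3 and 80.5 FPKM in coculture, against 61.4 and 63.4 FPKM in mock. Coculture stood above mock in both pairs, by 0.27 and 0.34 (mean 0.30 ± 0.11, limma adjusted p = 0.33). Atp6v1h, a regulatory subunit, had 69.9 and 61.0 FPKM in coculture, against 59.9 and 46.3 FPKM in mock, and was higher by 0.22 and 0.39 (limma adjusted p = 0.344). Atp6v1f, Atp6v1d and Atp6v1c1 were higher by mean differences of 0.17, 0.10 and 0.05. Atp6v1c1 was nearly level in pair 1, with 66.2 FPKM in coculture, against 66.1 FPKM in mock (difference 0.002). Atp6v1d differed by only 0.05 in pair 2. The count of signs thus includes very small differences.

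The gene of the catalytic V1 subunit and that of its partner each had opposite signs in the pairs. Atp6v1a, the subunit that hydrolyses ATP and a carrier of the palindrome, had 78.0 and 122 FPKM in coculture, against 106 and 104 FPKM in mock. Its differences were -0.44 in pair 1 and 0.23 in pair 2. Its partner Atp6v1b2 had the same signs, with differences of -0.42 and 0.17. Atp6v1g1 had differences of 0.04 and -0.11.

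In the V0 sector and among accessory proteins no gene was lower in both pairs. Atp6v0b and Atp6v0a1 were higher by mean differences of 0.13 and 0.22, with the same sign in both pairs. In pair 1 their differences were small, at 0.06 and 0.05. Atp6v0d1, which couples V0 to V1, had 46.6 and 90.6 FPKM in coculture, against 49.1 and 61.8 FPKM in mock. The signs were opposite, at -0.07 and 0.55. Atp6ap2, the prorenin receptor and an assembly partner of V0, had 78.7 and 103 FPKM in coculture, against 90.3 and 68.5 FPKM in mock, again with opposite signs (-0.20 and 0.58). Atp6ap1 and Atp6v0e differed by 0.04 and 0.03 on average.

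The V0 gene Atp6v0c could not be read reliably. This subunit gene, for the proton-carrying ring, had 89.5 FPKM in coculture 1 and 77.9 FPKM in mock 1, but 0.859 FPKM in coculture 2 and 1.25 FPKM in mock 2. The gap lay between the tables, not between the groups. The mouse annotation lists pseudogene copies, Atp6v0c-ps1 and Atp6v0c-ps2, with which reads may be shared, and how either table treated such reads is not given in the sources used here. Other members also overlap annotated neighbours over more than 20% of their exon length, Ctsd by 34.4% and Ctsl by 26.8%. Without these 3 genes and Arsb, a choice made after seeing the data, 12 members were lower and 11 higher in both pairs.

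**Figure D4:**
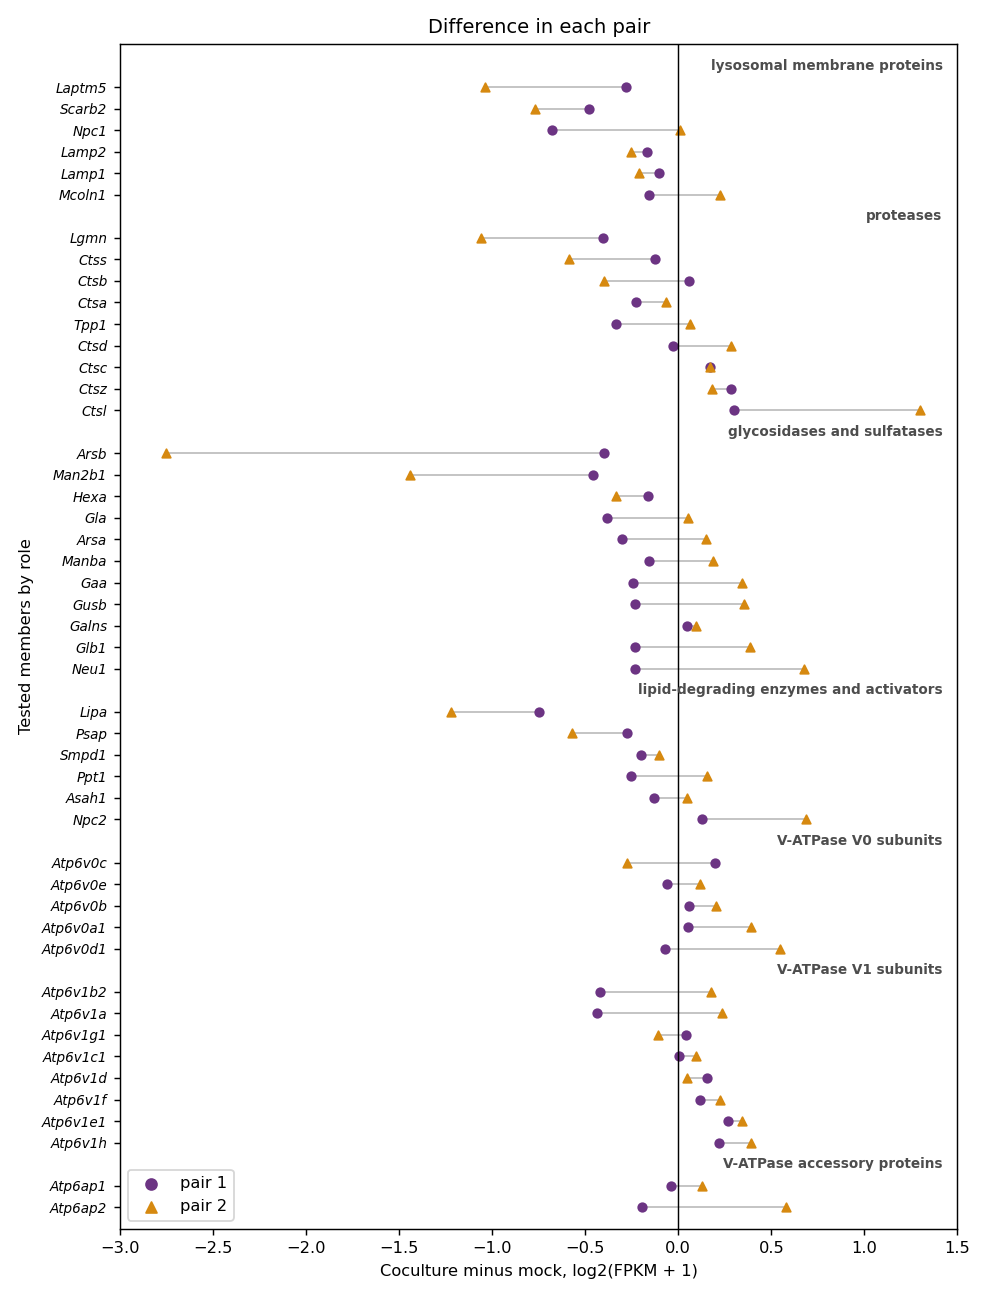
Coculture minus mock difference of log2(FPKM + 1) for each of the 47 tested members, grouped by role and ordered within a role by the mean of the pairs; circles are pair 1, triangles pair 2, and a grey line joins them. Most glycosidase and sulfatase genes have the circle left of zero and the triangle right of it, whereas Arsb, Man2b1, Lipa, Lgmn and Laptm5 have both left of zero with the triangle farther out.

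Genes that work beside the set in the same pathway, 103 in all, were taken from lists chosen with earlier results of these data known. Of the 84 tested, 0 passed limma in either direction. An unadjusted limma p under 0.05 was reached by 7 of the 84 as higher and by 18 as lower, beside 5.26% and 9.45% of all genes. In both pairs 48 (57.1%) were lower and 15 (17.9%) higher, beside the 42.2% and 21.5% of all genes. Their median difference was -0.16.

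Tfeb, the transcription factor gene named above, had 3.01 and 5.64 FPKM in coculture, against 8.68 and 14.9 FPKM in mock (mean difference -1.27 ± 0.15, limma adjusted p = 0.0964). Its relatives differed less, Mitf by -0.17 and -0.21 and Tfe3 by 0.24 and -0.07, and Tfec stayed below the filter. Ragulator, the Rag GTPases and folliculin bring mTORC1 to the lysosome and restrain TFEB. Of 13 tested genes for these and their partners, with Mtor and Rptor of mTORC1 counted, 11 (84.6%) were lower in both pairs. Over all genes the share was 42.2%. None of the 13 passed the test: Fnip2 had differences of -0.62 and -0.43, Rragb -0.57 and -0.59, and Lamtor1 -0.23 and -0.22.

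Of 10 enzyme sorting genes, 6 were lower and 3 higher in both pairs, beside 42.2% and 21.5% of all genes. Gnptab, whose product starts the mannose 6-phosphate tag on hydrolases, had 37.6 and 30.1 FPKM in coculture, against 63.4 and 51.3 FPKM in mock (mean difference -0.74 ± 0.11, limma adjusted p = 0.125). The adaptor genes Gga3 and Gga2 had mean differences of -0.48 and -0.43. The mannose 6-phosphate receptor genes, added here after their values were seen, were on the other side: M6pr had differences of 0.25 and 0.67 and Igf2r of 0.23 and 0.85, without passing the test. Of 22 other hydrolase and activator genes tested, 12 were lower in both pairs and 3 higher. Naaa, an acid amidase, had differences of -0.51 and -1.31, Sgsh, a sulfatase of heparan sulfate, -0.92 and -0.50, and the phospholipase gene Pla2g15 -0.78 and -0.55.

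Other membrane transporters included Slc15a3, with the largest mean difference among the tested pathway genes. In pair 2 alone that of Acp5, an acid phosphatase gene singled out after its values were seen, was larger at 3.79, beside 0.03 in pair 1. Slc15a3, a peptide and histidine transporter gene of endolysosomes, had 24.2 and 64.8 FPKM in coculture, against 5.50 and 8.22 FPKM in mock (mean difference 2.39 ± 0.25, limma adjusted p = 0.072). Its relative Slc15a4 had the opposite sign, at -0.45 and -0.62. Tpcn1, an endolysosomal channel, had differences of -0.76 and -1.26 (mean -1.01 ± 0.16, limma adjusted p = 0.143).

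Inhibitors of cathepsins and further V-ATPase genes completed the pathway. Cstb, a cytosolic cathepsin inhibitor, was higher by 0.29 and 0.76, while Cst7 had differences of -0.66 and -0.68. The secreted inhibitor Cst3 had 923 and 584 FPKM in coculture, against 1071 and 2114 FPKM in mock, so that its lower value, like that of Arsb, rested mainly on pair 2. Among V-ATPase subunits outside the set, Atp6v0d2 had differences of -0.46 and -0.73 and Atp6v0e2 of -0.34 and -0.10. Of the remaining genes listed with the V-ATPase, Rnasek was higher by 0.25 and 0.49, and Wdr7 and Oxr1 had mean differences of -0.60 and -0.33.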

How the data were processed

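The values are FPKM, deposited by the authors in 2 tables, each with 1 coculture and 1 mock library. The submitters' processing notes list featureCounts, Subread and Trim Galore without versions. They give hg38 as the build, which is human, whereas both tables carry mouse symbols. The annotation and gene lengths behind the FPKM were not given in the labels or file headers. The first table has 23427 rows and the second 25239. In the first, 23 unnamed rows and 287 rows with repeated names (at most 1.07% of a library's FPKM) were left out.

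FPKM were used as deposited. The 10202 of 22554 genes that reached 1 FPKM in 2 or more libraries were transformed to log2(FPKM + 1), a scale that understates changes of low genes. Differences were fitted with limma 3.58.1 under R 4.3.3 (trended prior variance, two-sided, Benjamini-Hochberg threshold 0.05), with the pair as a block, since levels in tables that may have been normalized separately are comparable only within a table. This leaves 1 residual degree of freedom. Deviations from the group means correlated at 0.76 within pairs, a value that 2 pairs share by construction. An exact permutation test of 2 against 2 libraries cannot reach p = 0.05, so none is given. The fit was also run on simulated data, with the same noise for every gene and changes larger than the mean difference of any tested member. That run therefore cannot show how well differences of the members' size are found. The labels do not say whether replicates were separate cultures, so the p-values reflect the spread of these 4 libraries alone, which may be technical.

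Depth was estimated from the FPKM steps with GENCODE M21 exon lengths: at the depth chosen, 24.6% to 27.0% of values worth under 8 reads fell within 0.02 of a whole read, against a median of 3.05% to 3.26% at other depths. At these lengths the tested members had at least 213 reads in each library, apart from Atp6v0c with 36 in coculture 2 and 67 in mock 2. Members and lists were chosen with earlier results of these data known. Members given with the value in every library were the 12 with the largest smaller within-pair difference of one sign, the 6 of opposite sign with the widest gap, the 6 highest in mean FPKM, and any below the filter; Atp6v0c was added after its values were seen. From each other list up to 3 genes were named by the first of these rules, plus the MiT/TFE genes.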

Additional observations from a re-analysis of the deposited data

How the results depend on the processing

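None of the 48 members passed limma under any alternative run. The number of all genes called higher, 13 in the main analysis, was 22 with a pseudocount of 0.1, 0 with no filter, 25 with at least 5 FPKM, 25 after rescaling to a common total, 85 after median centring, 43 after quantile normalization and 1 without the trend. With no replicate block, thus ignoring the pairing, it was 1, and leaving out 1 library, unblocked, it was 0 to 0. The number called lower, 0 in the main analysis, was 1 with at least 5 FPKM, 1 after rescaling, 18 after median centring and 3 after quantile normalization. Members higher in both pairs, 12 in the main analysis, were 7 after rescaling, and those lower were 17, against 13. Unblocked and without 1 library, so across tables, the median difference ranged from -0.27 to 0.22 over the tested members, from -0.055 to 0.22 over the V-ATPase genes and from -0.37 to 0.15 over the other members; the value highest in each case came without coculture 1 and the lowest without coculture 2. After median centring the member median, -0.03 in the main analysis, was 0.03. Among the 44 genes named by rule, 10 turned sign in some alternative, each in a leave-out value, and Ctsd also at -0.0056 after quantile normalization. Their leave-out ranges were -0.0052 to 0.39 for Atp6ap2, -0.24 to 0.71 for Atp6v0d1, -0.42 to 0.22 for Atp6v1a, -0.78 to 1.12 for Ctsc, -0.049 to 0.30 for Ctsd, -0.19 to 1.79 for Ctsl, -0.38 to 0.53 for Glb1, -0.41 to 0.022 for Mitf, -0.36 to 0.80 for Neu1 and -0.15 to 0.32 for Tfe3. The cause was not tested. After median centring Slc15a3 (2.46, limma adjusted p = 0.0178) and Tfeb (-1.20, 0.0448) passed. With 2 libraries a group and 1 residual degree of freedom, a difference that misses the threshold is not shown to be absent.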
